A study of Mus musculus with 6 samples.

Results

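Interferons are secreted signals of antiviral defence that act through cell-surface receptors, JAK kinases and STAT and IRF transcription factors. The type I receptor (Ifnar1 and Ifnar2) leads to a complex with Stat2 and Irf9 that binds an interferon-stimulated response element (ISRE), and the type II receptor (Ifngr1 and Ifngr2) leads to binding at a gamma-activated site (GAS). Cytosolic RNA sensors signal through the mitochondrial adaptor Mavs and Irf3 to start interferon production, and the genes induced by interferon restrict viruses and feed back on the pathway. Described here are 36 genes of this pathway, matched by symbol to 36 of the 33084 Ensembl gene identifiers in the deposited table: 4 receptor genes, 6 transcription factor genes, 6 genes of RNA sensing, 8 classical response genes, 5 genes of membrane and secreted effectors and 7 other response genes.

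The forebrain was dissected from mouse embryos of the Dyrk1a+/- line of embryonic day 15.5. The groups were 3 controls (wt) and 3 mutants with an inactive copy of the kinase gene Dyrk1a (Dyrk1a+/-, heterozygotes), and RNA was sequenced in bulk. No agent was given to either group, and the only stated difference is the genotype. The labels call the samples biological replicates. Any exons removed, strain, litter and sex are not stated in them, so p-values measure only the spread between these 6 samples. Libraries held 25270710 to 32865708 counts in wt and 18699434 to 25012356 in heterozygotes. Every wt library was thus deeper than every heterozygote library, and raw counts of the genotypes are not on the same scale. Expression is given as CPM, counts scaled to the effective size of each library. Dyrk1a itself was at 177, 186 and 160 CPM in wt and at 149, 147 and 158 CPM in heterozygotes (log2 fold change -0.20, SE 0.079; edgeR, adjusted p = 0.59). Its heterozygotes were all below wt, and since any exons removed are not known, this checks the labels only in part. The 9 forebrain progenitor markers and the 10 forebrain neuron markers were all tested, with summed levels of 707 to 937 and 4179 to 4654 CPM. Heterozygote replicate 2 and wt replicate 3, called the pair below, held more 7SK, RNase P and RNase MRP RNA than the 4 others (4% and 4.46% against 2.57% to 3.01% of counts), so differences within this pair and within the 4 other libraries are given for the genes described in most detail.

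The promoters of 4 classical response genes and of Irf1 are shown because they carry the letters of these elements, while several of the same genes had almost no reads, as given further on. The ISRE core was searched as GAAA and GAAA separated by any 2 bases, and the GAS as TTC and GAA separated by any 3 bases, on both strands, in windows from 250 bases before to 50 bases after each RefSeq start (GRCm38.p6). Windows were found for 31 of the 36 genes. The stretches run 5′ to 3′ on the gene's strand and end at the base before the start, with matched letters in capitals; in Isg15 the capitals join 3 overlapping ISRE matches. Matches to the ISRE and the GAS overlapped in Bst2 and in Ifitm3, which are not shown. Rsad2 is at chr12:26456453-26456612 (minus strand), Ifit3 at chr19:34583369-34583528 (plus), Ifit1 at chr19:34640729-34640888 (plus), Isg15 at chr4:156200819-156200978 (minus) and Irf1, with a GAS, at chr11:53769904-53770013 (plus).
Rsad2: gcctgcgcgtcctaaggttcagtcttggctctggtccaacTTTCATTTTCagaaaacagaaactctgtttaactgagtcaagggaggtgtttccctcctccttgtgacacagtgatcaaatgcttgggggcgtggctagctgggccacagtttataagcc
Ifit3: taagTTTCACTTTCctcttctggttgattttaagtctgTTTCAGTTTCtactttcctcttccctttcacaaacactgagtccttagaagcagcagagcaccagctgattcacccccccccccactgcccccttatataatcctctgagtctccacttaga
Ifit1: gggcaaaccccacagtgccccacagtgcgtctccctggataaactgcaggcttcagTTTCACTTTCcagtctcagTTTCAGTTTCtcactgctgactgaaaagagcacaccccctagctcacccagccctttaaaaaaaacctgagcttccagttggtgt
Isg15: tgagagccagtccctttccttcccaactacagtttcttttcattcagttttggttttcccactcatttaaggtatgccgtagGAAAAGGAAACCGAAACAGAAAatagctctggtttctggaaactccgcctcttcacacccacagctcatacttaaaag
Irf1: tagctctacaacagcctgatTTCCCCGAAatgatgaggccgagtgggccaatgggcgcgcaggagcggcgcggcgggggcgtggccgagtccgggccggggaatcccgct

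ISRE letters were present in the windows of 13 of these 31 genes (41.9%), of 27 of 90 other interferon pathway genes (30%) and of 1079 of all 27025 genes with a window (3.99%). GAS letters were present in 11 of 31 (35.5%), 15 of 90 (16.7%) and 2582 of 27025 (9.55%). The letters describe the windows only and are not evidence of binding. The 13 genes with ISRE letters had wt levels from 0.0203 CPM (Ifit1) to 28.7 CPM (Stat2), with a median of 1.36 CPM, and 4 of them were under 1 CPM.

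The 4 receptor genes and the RNA editing enzyme gene Adar were readily measured in the forebrain at this age, as were Irf3, Stat2 and Irf9, while Irf1 and Irf2 were lower and Irf7 was hardly detected. The 20 response genes ran from 5 counts over all libraries (Ifit1) to 12.5 CPM in wt (Ifitm2). Of the 36 genes 10 were under 1 CPM in wt, 16 were between 1 and 10 CPM and 10 were at 10 CPM or more. Of these, 30 passed the filter on low counts and were tested, and 6 did not: Irf7, Ifit1, Ifit3, Isg15, Usp18 and Oas1a. On a scale that allows genes to be compared (CPM per kilobase of exons), 24 of the 30 tested genes were below the wt median of all 19403 genes tested, 4.41 CPM per kilobase. The 6 above it were Adar (21.8 ± 1.67 CPM per kilobase in wt, SD, n = 3), Ifitm2 (19.01 ± 2.83), Ifnar1 (18.8 ± 0.232), Ifngr2 (13.6 ± 0.708), Irf3 (8.68 ± 1.36) and Stat2 (4.84 ± 0.28). The wt libraries of Ifitm2 overlapped in level with those of Adar and of Ifnar1, its neighbours in that order, and each of the other neighbours was separated. Ifitm2 shares 268 bases of exon with Gm45717 on the same strand, and Ifnar2 shares 315 with Gm21970. Neither overlapping gene is in the deposited table, and the effect on these levels was not tested.

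**Figure D1:**
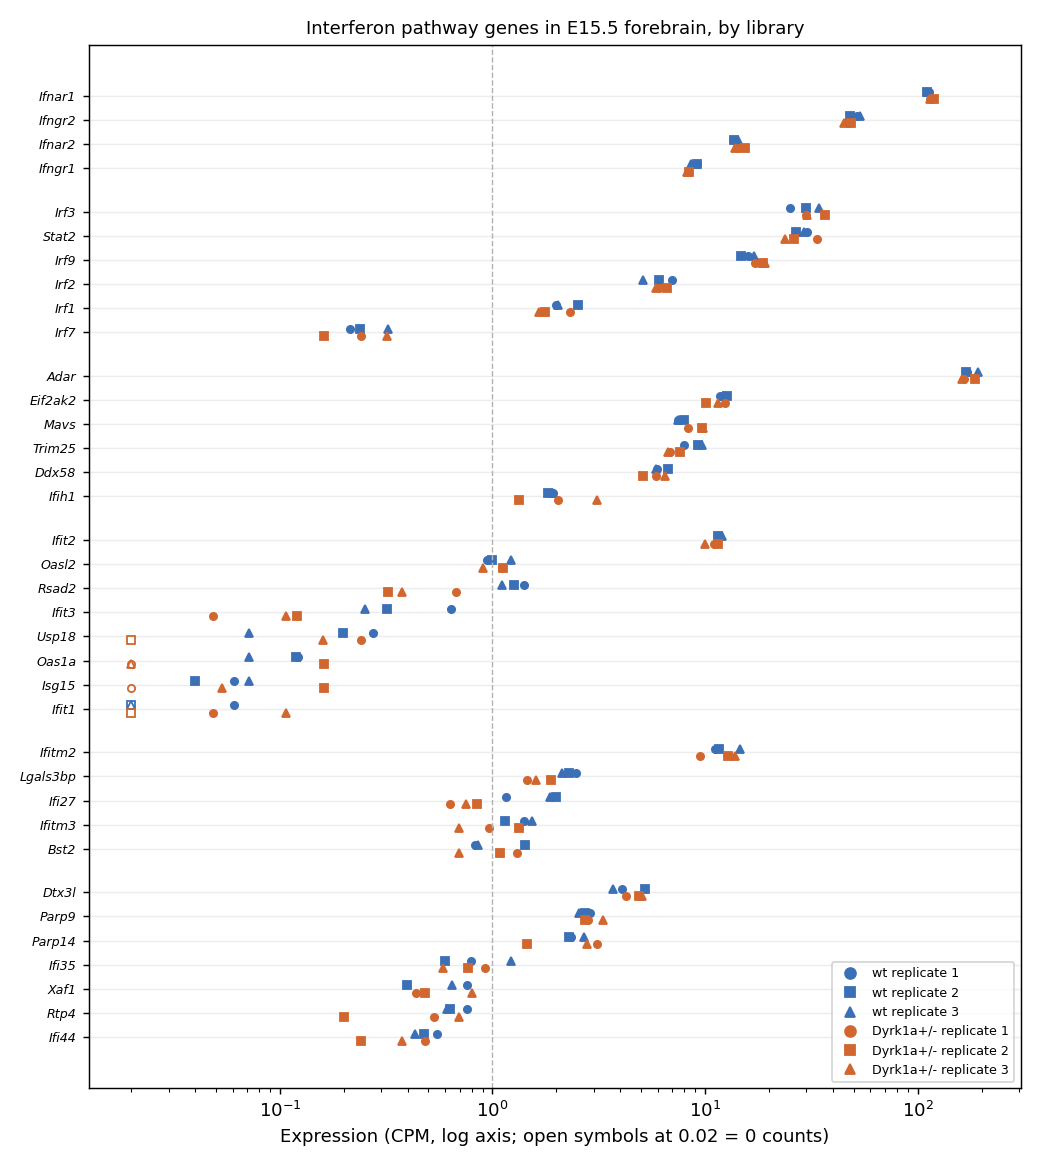
Expression of the 36 genes in each of the 6 libraries, in CPM on a log axis, grouped by role and sorted by level; blue is wt, orange Dyrk1a+/-, and open symbols placed at 0.02 stand for 0 counts. Receptor genes lie at 8.27 CPM or more in every library, while Ifit1, Isg15, Usp18 and Oas1a reach 0 counts in at least 1 library.

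Between the genotypes 0 of the 30 tested genes passed edgeR's quasi-likelihood test after Benjamini-Hochberg adjustment over all genes (adjusted p 0.483 to 0.999), where 0.0103% of all genes passed. DESeq2 also called 0 of them (0.139% of all genes) and gave low genes such as Rsad2 and Ifi27 no adjusted p. At an unadjusted edgeR p under 0.05 there were 5, where 7.88% of all genes tested were at that level. Mavs was higher (3.27% of all genes were) and Rsad2, Ifi27, Lgals3bp and Trim25 were lower (4.61%). DESeq2 placed 2 there, Rsad2 and Ifi27, where 5.79% of all genes were. Of the 30, 19 had a log2 fold change below 0 (48.8% of all genes did) and 11 above, with a median of -0.066 against 0.0048 over all genes. The 3 heterozygotes did not overlap with the 3 wt libraries in 8 of the 30 genes (14% of all genes), lower in 5 (7.49%) and higher in 3 (6.53%). An exact permutation test, 2-sided, necessarily gave 0.1 for each of the 8, its smallest possible p in a design of 3 and 3. It restates the lack of overlap and adds no support.

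**Figure D2:**
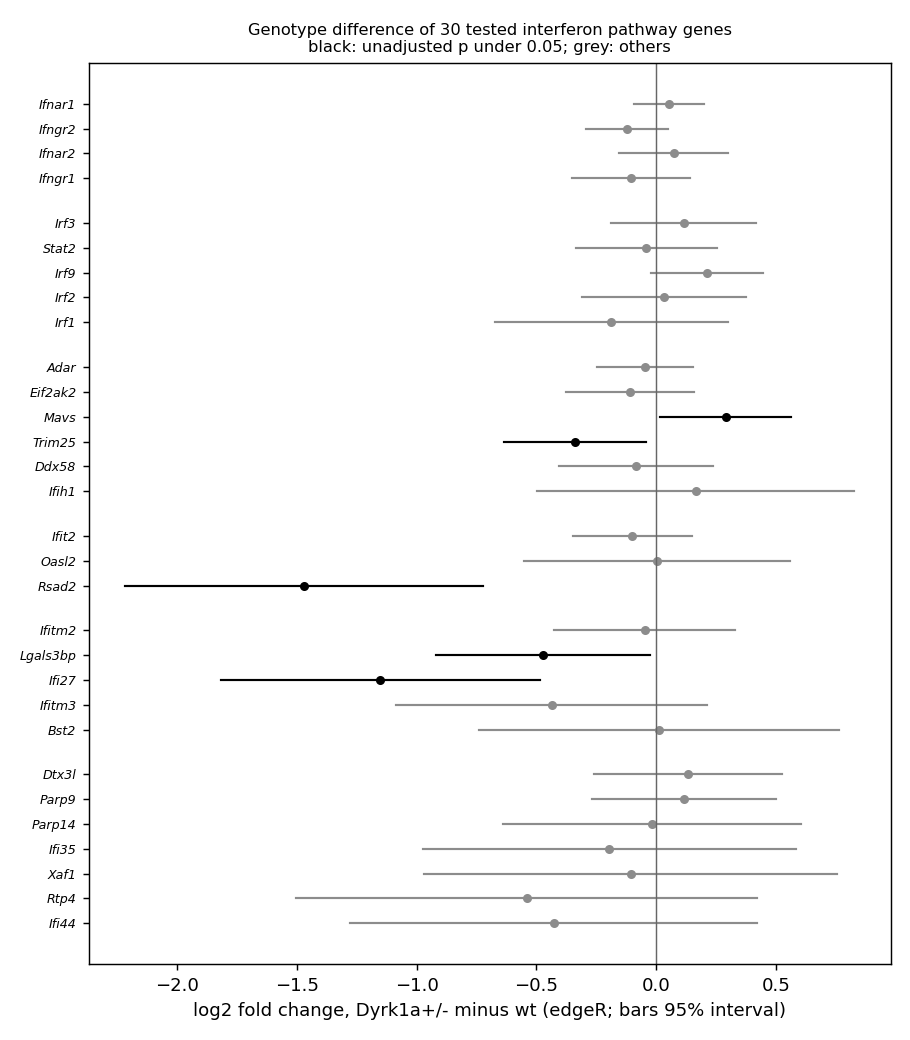
Log2 fold change (Dyrk1a+/- minus wt) of the 30 tested genes with its 95% interval from edgeR, grouped by role; black marks an unadjusted p under 0.05. Rsad2 (-1.47) and Ifi27 (-1.15) lie farthest from 0, the receptor genes lie between -0.12 and 0.07, and the intervals of low genes such as Rtp4 and Ifi44 are wide.

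Among the receptors, no gene passed the test, and 2 were higher and 2 lower. Ifnar1, the signalling chain gene of the type I receptor (ENSMUSG00000022967, chromosome 16, 91485238 to 91507441), was at 113, 111 and 111 CPM in wt and at 115, 119 and 114 CPM in heterozygotes. All 3 heterozygotes lay above wt, but the log2 fold change was 0.05 (95% interval -0.09 to 0.20; edgeR, Benjamini-Hochberg adjusted p = 0.891). Ifngr2, the accessory chain gene of the type II receptor, was at 52.1, 48.3 and 53.4 CPM in wt and at 47.5, 48.5 and 45.2 CPM in heterozygotes (-0.12, interval -0.29 to 0.05). The genotypes overlapped there by a single heterozygote, replicate 2. Ifngr1, the ligand-binding chain gene of the type II receptor, was at 9.12, 9.12 and 8.63 CPM in wt and at 8.36, 8.37 and 8.27 CPM in heterozygotes (-0.10, interval -0.35 to 0.14). Its heterozygotes lay just below wt. Ifnar2, the other type I receptor chain gene, was at 13.8 ± 0.436 and 14.5 ± 0.769 CPM (± SD of 3 libraries). Summed over the 4 genes, receptor expression was 182 to 188 CPM in wt and 181 to 191 CPM in heterozygotes.

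Ifnar2, Ifnar1 and Ifngr2 lie together on mouse chromosome 16, with Il10rb between Ifnar2 and Ifnar1, and the cluster ends 3.00 Mb before Dyrk1a. The labels do not give the extent of any deletion. Il10rb, which encodes a chain shared by the interferon lambda and interleukin-10 family receptors, was at 3.25 ± 0.403 CPM (wt) and 3.17 ± 0.127 CPM in heterozygotes (± SD of 3 libraries; log2 fold change -0.04, SE 0.165). No gene of the cluster passed the test, and the signs within it were mixed.

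Of the transcription factors, Irf3, the factor phosphorylated after RNA sensing, was at 25.2, 29.9 and 34.6 CPM in wt and at 29.9, 36.8 and 30.1 CPM in heterozygotes (log2 fold change 0.11, SE 0.133). Stat2, the STAT of type I signalling, was at 30.1, 26.9 and 29.2 CPM in wt and at 33.6, 26.4 and 23.7 CPM in heterozygotes (-0.04, SE 0.130). The genotypes overlapped in both genes. Irf9, which provides DNA binding to the complex with Stat2, was at 15.9, 14.8 and 17.0 CPM in wt and at 17.2, 18.8 and 19.1 CPM in heterozygotes. All 3 heterozygotes were above wt, with a log2 fold change of 0.21 (SE 0.102; unadjusted p = 0.0706, Benjamini-Hochberg adjusted p = 0.68, edgeR) and differences of 0.15 within the pair and 0.25 within the 4 others. Rnf31 shares 123 bases of exon with Irf9 on the same strand. Irf1, an early activator, and Irf2, its antagonist at shared sites, were low, at 2.19 ± 0.305 and 6.05 ± 0.917 CPM in wt, and at 1.91 ± 0.355 and 6.19 ± 0.376 CPM in heterozygotes (± SD of 3 libraries). Irf7, the interferon-induced factor that amplifies type I interferon, had 37 counts in all 6 libraries together, 22 in wt and 15 in heterozygotes. Scaled for depth, these were means of 0.258 and 0.241 CPM. Irf7 shares 45 bases of exon with the abundant Phrf1 on the opposite strand.

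In RNA sensing, Mavs and Trim25 had opposite signs. Mavs (ENSMUSG00000037523, chromosome 2, 131234063 to 131248025), the mitochondrial adaptor gene of the RNA helicase sensors, was at 7.45, 7.93 and 7.45 CPM in wt and at 8.36, 9.70 and 9.82 CPM in heterozygotes. Every heterozygote lay above every wt library, by a log2 fold change of 0.29 (SE 0.120; edgeR unadjusted p = 0.0404, Benjamini-Hochberg adjusted p = 0.615), with 0.38 within the pair and 0.24 within the 4 others. Trim25 (ENSMUSG00000000275, chromosome 11, 88999376 to 89020293), which encodes a ubiquitin ligase that acts on RIG-I, was at 7.96, 9.24 and 9.67 CPM in wt and at 6.86, 7.65 and 6.67 CPM in heterozygotes. Its heterozygotes were all below wt, by -0.34 (SE 0.130; edgeR unadjusted p = 0.0285, Benjamini-Hochberg adjusted p = 0.587), with -0.34 within the pair and -0.35 within the 4 others. Neither gene kept an unadjusted p under 0.05 in DESeq2 (0.0777 for Mavs and 0.0574 for Trim25).

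The sensors themselves showed no separation of the genotypes. Ddx58, which encodes RIG-I, was at 6.17 ± 0.424 CPM in wt and 5.84 ± 0.70 CPM in heterozygotes, and Ifih1, which encodes MDA5, at 1.89 ± 0.0601 and 2.15 ± 0.889 CPM (± SD of 3 libraries). The Ifih1 heterozygotes spread from 1.33 to 3.09 CPM, on either side of wt. Eif2ak2, the gene of the double-stranded RNA-activated kinase PKR, was at 11.8, 12.7 and 12.1 CPM in wt and at 12.4, 10.1 and 11.5 CPM in heterozygotes (log2 fold change -0.11, SE 0.117). Adar, whose product edits adenosine to inosine in double-stranded RNA and limits the sensing of self RNA, was the most abundant of the 36 genes. It was at 170.2, 169 and 193 CPM in wt and at 165, 187 and 162 CPM in heterozygotes (-0.05, SE 0.088), with the highest wt and the highest heterozygote value in the pair of libraries that stood apart. Chrnb2, on the opposite strand, shares 1365 bases of exon with Adar.

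The classical response genes were low apart from Ifit2, and Rsad2 showed the largest difference of the 30 tested genes. Rsad2 (ENSMUSG00000020641, chromosome 12, 26442746 to 26456452) encodes viperin, a radical SAM enzyme that makes a chain-terminating nucleotide. It had 46, 32 and 31 counts in wt and 14, 8 and 7 counts in heterozygotes, or 1.40, 1.27 and 1.11 CPM against 0.676, 0.322 and 0.373 CPM. The lowest wt library was above the highest heterozygote, and the ratio of means was 0.363. EdgeR put the log2 fold change at -1.47 (SE 0.329, 95% interval -2.21 to -0.72; unadjusted p = 0.00163, Benjamini-Hochberg adjusted p = 0.483), with -1.79 within the pair and -1.35 within the 4 others. Leaving out 1 library at a time gave -1.86 to -1.25.

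Ifit3, which encodes an RNA-binding effector of the IFIT family, had 21, 8 and 7 counts in wt and 1, 3 and 2 counts in heterozygotes, and was excluded by the filter on low counts. All 3 heterozygotes were below wt, at 0.0483, 0.121 and 0.107 CPM against 0.641, 0.317 and 0.251 CPM, and wt replicate 1 held 21 of the 36 wt counts. With no low-count filter its edgeR log2 fold change was -2.09 (SE 0.658; unadjusted p = 0.00589, Benjamini-Hochberg adjusted p = 0.48). Its neighbour on chromosome 19, Ifit2, 7.11 kb away, was at 11.5, 11.5 and 12.0 CPM in wt and at 11.01, 11.6 and 10.03 CPM in heterozygotes (-0.10, SE 0.109). Ifit1, the third of the cluster, had 2 counts in wt and 3 in heterozygotes. Within this gene cluster, then, 1 member was readily measured with overlapping genotypes and 2 were near 0. Close copies such as Ifit3b share sequence with them, so the authors' counting could split or drop reads.

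Oasl2, an oligoadenylate synthetase-like gene, was at 0.946, 0.992 and 1.22 CPM in wt and at 1.11, 1.13 and 0.907 CPM in heterozygotes, with overlapping genotypes. Isg15, the ubiquitin-like modifier gene that is among the strongest responders to interferon, had 5 counts in wt and 5 in heterozygotes. Usp18, whose product removes Isg15 and dampens the type I receptor, had 16 and 8 counts. Oas1a, an oligoadenylate synthetase gene with close copies beside it, had 9 and 4. Mean CPM in wt and heterozygotes was 0.0574 and 0.0714 (Isg15), 0.182 and 0.134 (Usp18) and 0.104 and 0.0537 (Oas1a). In a single library 3 counts correspond to 0.0915 to 0.16 CPM, the level up to which a count of 0 can be read, and this limit covers counting error only. Differences between the genotypes in Ifit1, Isg15, Usp18 and Oas1a were not detectable at this depth.

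Membrane and secreted effectors were lower in 4 of 5 genes (48.8% of all genes were), with a median log2 fold change of -0.44, and 2 were lower at an unadjusted p under 0.05 (4.61% of all genes). Ifi27 (ENSMUSG00000064215, chromosome 12, 103434211 to 103440239), which encodes a small interferon-inducible membrane protein, was at 1.16, 1.98 and 1.86 CPM in wt and at 0.628, 0.845 and 0.747 CPM in heterozygotes. The genotypes did not overlap, and the ratio of means was 0.444 from 38, 50 and 52 counts against 13, 21 and 14. EdgeR put it at -1.15 on the log2 scale (SE 0.294, 95% interval -1.82 to -0.49; unadjusted p = 0.0036, Benjamini-Hochberg adjusted p = 0.483), with -1.14 within the pair, -1.19 within the 4 others and -1.36 to -1.01 with 1 library left out.

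Lgals3bp, a secreted galectin-binding glycoprotein gene, was at 2.47, 2.30 and 2.11 CPM in wt and at 1.45, 1.89 and 1.60 CPM in heterozygotes. The heterozygotes were all lower (-0.47, SE 0.197; edgeR unadjusted p = 0.04, Benjamini-Hochberg adjusted p = 0.615), by -0.16 within the pair and by -0.65 within the 4 others, and the DESeq2 p was 0.132. Ifitm2, which encodes an inhibitor of virus entry, was at 11.2, 11.6 and 14.6 CPM in wt and at 9.52, 12.8 and 13.8 CPM in heterozygotes (-0.05, SE 0.166). Its relative Ifitm3 was at 1.36 ± 0.198 and 0.996 ± 0.318 CPM (± SD of 3 libraries; -0.44, SE 0.286), and Bst2, the gene of the virus tether tetherin, at 1.04 ± 0.339 and 1.03 ± 0.310 CPM. The genotypes overlapped in these 3 genes.

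**Figure D3:**
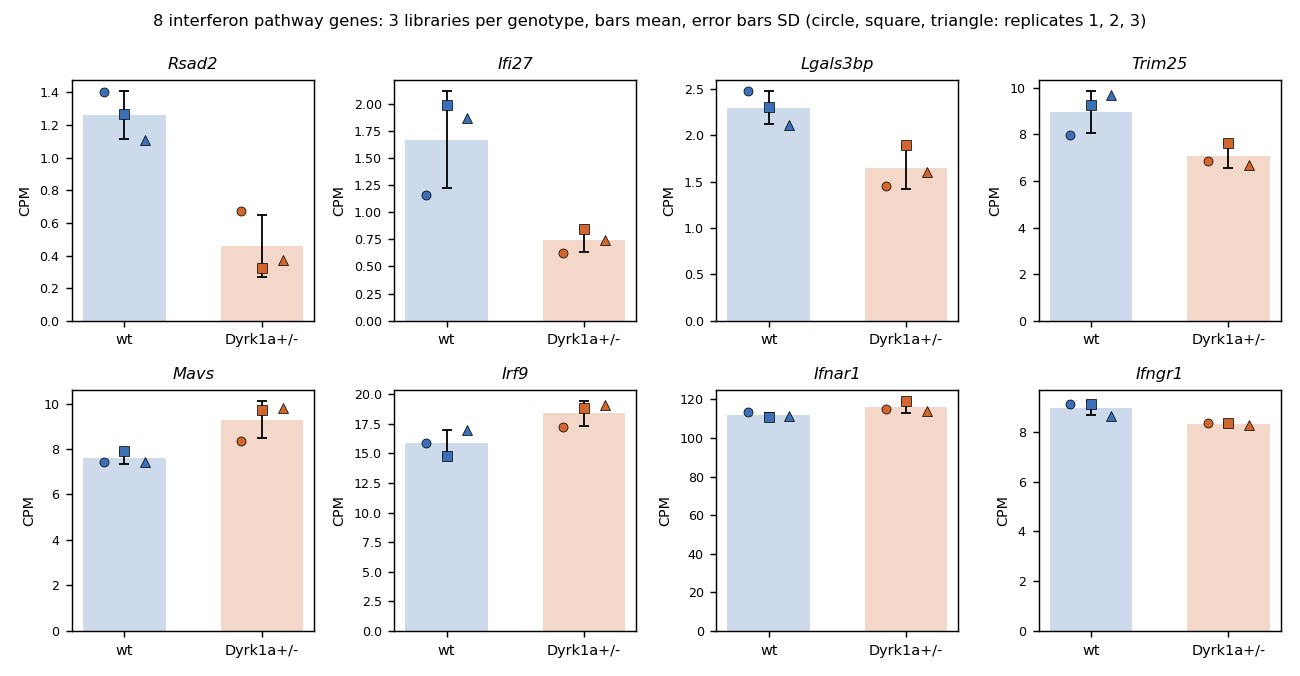
CPM of the 5 genes at an unadjusted p under 0.05 (Rsad2, Ifi27, Lgals3bp, Trim25, Mavs) and of 3 others whose genotypes do not overlap (Irf9, Ifnar1, Ifngr1), on linear axes from 0; bars are means, error bars SD over 3 libraries, and symbols mark replicates 1 to 3. Rsad2 and Ifi27 heterozygotes average 0.363 and 0.444 of wt, and Ifnar1 and Ifngr1 differ by 0.05 and -0.10 on the log2 scale.

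None of the 7 other response genes was at an unadjusted p under 0.05, and the genotypes overlapped in each. Dtx3l, a ubiquitin ligase gene, was at 4.09, 5.24 and 3.69 CPM in wt and at 4.25, 4.91 and 5.07 CPM in heterozygotes. Parp9, which encodes the partner of Dtx3l and shares 458 bases of exon with it on the opposite strand, was at 2.87, 2.74 and 2.54 CPM in wt and at 2.80, 2.74 and 3.31 CPM in heterozygotes. Both are on chromosome 16 beside Parp14, an ADP-ribosyltransferase gene at 2.45 ± 0.210 and 2.44 ± 0.871 CPM (± SD of 3 libraries). Log2 fold changes of these 3 were 0.13, 0.11 and -0.02, with SEs of 0.173, 0.169 and 0.274. The remaining 4, Xaf1, Rtp4, Ifi35 and Ifi44, were under 1 CPM in wt, with log2 fold changes of -0.11, -0.54, -0.20 and -0.43 and SEs of 0.343 to 0.423. With 1 library left out, Rtp4 ran from -0.90 (without heterozygote replicate 3) to -0.14 (without heterozygote replicate 2), and Ifi44 from -0.68 (without heterozygote replicate 1) to -0.18 (without heterozygote replicate 2).

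Other genes of the pathway were taken from a list of 118 symbols, of which 109 were matched and 84 tested; log2 fold changes were above 0 in 36 and below 0 in 48 (median -0.038). After adjustment 0 passed by edgeR and 0 by DESeq2. At an unadjusted p under 0.05 were 3 by edgeR (Socs3 and Ptpn6 higher, Oas3 lower) and 1 by DESeq2 (Socs3) of the 84, a smaller share than the 7.88% and 5.79% of all genes. The interferon genes that were matched were at the floor. Ifng, Ifna4, Ifnab and Ifne had 0 counts in all 6 libraries, Ifna2 had 1 and Ifnz, matched as Gm13271, had 2. Interferon genes not listed or not matched are not covered. Ifnlr1, the interferon lambda receptor gene, was at 0.649 ± 0.310 CPM (wt) and 0.40 ± 0.147 CPM in heterozygotes (± SD of 3 libraries).

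The JAK kinases were measured well and were close between genotypes, although all 3 Jak1 heterozygotes lay below wt. The genotypes overlapped in Jak2 and Tyk2. Jak1, at 91.7 ± 4.62 and 85.1 ± 1.71 CPM, Jak2, at 124 ± 11.7 and 124 ± 10.3 CPM, and Tyk2, at 27.4 ± 1.87 and 26.5 ± 2.47 CPM, differed by -0.11, -0.003 and -0.05 on the log2 scale (SE 0.07 to 0.10). Socs3, a feedback inhibitor of JAK signalling, was at 8.82 ± 1.68 CPM (wt) and 11.8 ± 1.05 CPM in heterozygotes (± SD of 3 libraries; log2 fold change 0.42, SE 0.155; edgeR, Benjamini-Hochberg adjusted p = 0.574). Ptpn6, a phosphatase gene of blood cells, was at 1.69 ± 0.112 and 2.40 ± 0.120 CPM (0.51, SE 0.181; edgeR, Benjamini-Hochberg adjusted p = 0.554). In Socs3 and in Ptpn6 all heterozygotes lay above wt. Of the 84 other pathway genes tested, 9 did not overlap between genotypes (14% of all genes did not).

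Of 19 tested sensors and adaptors 10 were higher and 9 lower, none at an unadjusted p under 0.05, with the lowest p in the kinase gene Ikbke (-0.28, SE 0.179) and the adaptor gene Myd88 (-0.32, SE 0.244). Of 6 other IRF family and IRF-binding genes 3 were higher and 3 lower, and Irf2bp1 had a log2 fold change of 0.14 (SE 0.082). Of 35 tested effectors 24 were lower and 11 higher (median -0.092). Oas3, an oligoadenylate synthetase gene, was at 1.99 ± 0.121 and 1.42 ± 0.136 CPM (± SD of 3 libraries; -0.48, SE 0.198; edgeR, Benjamini-Hochberg adjusted p = 0.606), without overlap. The chemokine gene Cxcl10 had 0 counts in every library. Of 7 genes of RNA editing and nucleic acid clearance 5 were higher, with the lowest p in Adarb2 (-0.19, SE 0.092) and Rnaseh2a (0.16, SE 0.091).

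Summed markers of some cell types were lower in heterozygotes. Markers of border macrophages, led in level by Mrc1 and F13a1, were lower in 5 of 6 cases (4 at an unadjusted edgeR p under 0.05), with a summed level of 56.1 to 62.8 CPM in wt and 38.9 to 48.1 CPM in heterozygotes. Over all genes tested 48.8% were lower, and at that unadjusted p 4.61% were lower and 3.27% higher. Meningeal markers were lower in 8 of 10 cases (6 at that level), with sums of 577 to 682 and 496 to 543 CPM. Of those 6, 1 also passed after adjustment by edgeR and by DESeq2 (0.0103% and 0.139% of all genes did). Erythroid markers were lower in 7 of 8 cases (3 at that level, with the embryonic globin gene Hbb-y higher at that level), with sums of 749.8 to 949 and 582 to 743 CPM. Pericyte markers were lower in 6 of 6 cases (0 at that level), with sums of 218 to 235 and 180 to 212 CPM. Forebrain neuron markers were lower in 5 of 10 cases (1 at that level), with sums of 4376 to 4654 and 4179 to 4318 CPM. Those 5 sums did not overlap between the genotypes. Tubb3 and Dcx made up most of the neuron sum (1845 and 1628 CPM on average in wt), and the genotypes overlapped in each of them. On the log2 scale the border macrophage sum differed by -0.49 within the pair and by -0.47 within the 4 others, and the meningeal sum by -0.36 and -0.25. The erythroid sum differed by -0.013 within the pair and by -0.49 within the 4 others. Pericyte sums differed by -0.20 and -0.16, and neuron sums by -0.067 and -0.11. Microglial markers were lower in 10 of 12 cases (2 at that level), with overlapping sums of 87.7 to 92.2 and 73.7 to 91.5 CPM, and endothelial, choroid plexus and blood cell sums overlapped as well, at 308 to 355 and 305 to 341, 382 to 456 and 304 to 450, and 5.66 to 8.17 and 5.63 to 6.86 CPM. Forebrain progenitor markers were higher in 9 of 9 cases (3 at that level), with sums of 707 to 796 and 795 to 937 CPM that overlapped. No marker of these lists was at 0 in all libraries. The part of these cells in the levels of the 36 genes was not tested, and in bulk RNA fewer cells of a type cannot be told apart from less RNA per cell.

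**Figure D4:**
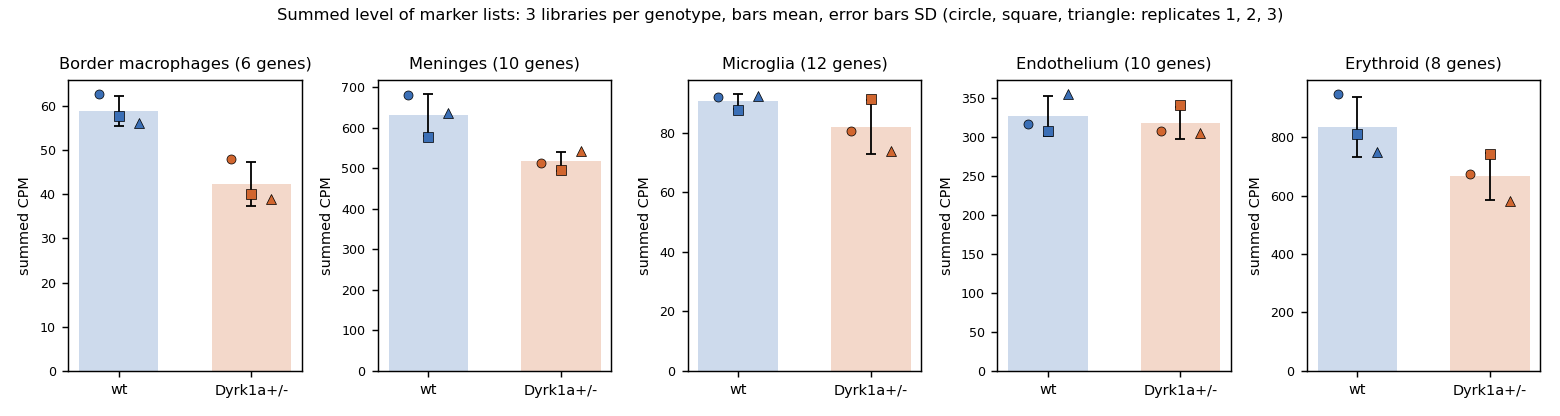
Summed CPM of 5 marker lists in each library, on linear axes from 0; bars are means, error bars SD over 3 libraries per genotype, and symbols mark replicates 1 to 3. Sums of border macrophage markers (56.1 to 62.8 against 38.9 to 48.1 CPM), meningeal and erythroid markers do not overlap between the genotypes, while microglial and endothelial sums do.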

How the data were processed

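Raw counts per Ensembl gene were deposited by the authors for the 6 libraries. Per the submitters' processing notes, bcl2fastq 2.17.1.14, HISAT2, SAMtools 1.9 and HTSeq 0.9.1 were used, with GRCm38/mm10. Per the labels' protocols the kit marks strand and depletes ribosomal RNA, while the molecule is given as polyA RNA. The sources used here name neither the annotation release nor the strand option of HTSeq, so reads of overlapping genes cannot be told apart.

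Symbols, positions and exon lengths came from GENCODE M21, and promoter windows from RefSeq. EdgeR 4.0.16 under R 4.3.3 was run with filterByExpr, TMM scaling and its quasi-likelihood test, genotype as the only term and Benjamini-Hochberg adjustment over 19403 genes at a threshold of 0.05; SEs follow from the F statistic. The script was tested on simulated data. DESeq2 1.42.0, other filters and scalings, a replicate block, a term for the pair, the 4 other libraries, thinned counts and leaving out each library were alternatives. No library was a copy of another.

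Members and lists were chosen with earlier results of these data known. Values in every library are given for members at an unadjusted p under 0.05, for members without overlap at 1 CPM or more, and for the 2 of highest CPM per role. Of other pathway lists the genes named are those at that p or else the 2 of lowest p, and Jak1, Jak2 and Tyk2; some genes that this rule names are not reported here. Counting intervals and floors cover counting error only.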

Additional observations from a re-analysis of the deposited data

How the results depend on the processing

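In 15 alternatives 0 of the genes tested (29 to 36, and all 36 only with no low-count filter) passed an adjusted p of 0.05. By DESeq2, low genes such as Rsad2 and Ifi27 had no adjusted p and so could not pass there. At an unadjusted p under 0.05 there were 2 to 6, and 19 of 30 kept the sign of their log2 fold change wherever tested. Rsad2 and Ifi27 were at an unadjusted p under 0.05 in all 15, Lgals3bp in 8, Trim25 in 7 and Mavs in 6. The 5 genes at that level (7.88% of all genes) became 6 with a term for the pair (15.7% of all genes) and 2 with the replicate block (5.72%). There were 2 by DESeq2 (5.79%), 3 in the 4 other libraries alone (12.9%) and 3 in thinned counts (7.79%). With 1 library left out there were 2 to 4 (4.11% to 10.5% of all genes). These were 3 without wt replicate 1 or heterozygote replicate 1, and 2 without wt replicate 2 or heterozygote replicate 3. The median of -0.066 was -0.10 with no low-count filter, -0.027 in the 4 other libraries and -0.11 (without heterozygote replicate 1) to -0.042 (without heterozygote replicate 2) with 1 library left out. The 8 genes without overlap (14% of all genes) became 16 in the 4 other libraries, where 46.3% of all genes did not overlap, and 8 to 14 with 1 library left out (19.3% to 30.3% of all genes; 12 without heterozygote replicate 1, 14 without heterozygote replicate 2). Over all genes, 2 calls became 4 with no filter, 0 with the replicate block, 6 with a term for the pair, 6 in the 4 other libraries, 27 by DESeq2 and 0 to 5 with 1 library left out (0 without wt replicate 1 or 2 or heterozygote replicate 1 or 3, 5 without heterozygote replicate 2). Same-numbered libraries did not pair (correlations of deviations 0.201, -0.325 and -0.165).

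Small log2 fold changes reversed. In the 4 other libraries they were -0.12 (Irf2), 0.012 (Stat2), -0.13 (Bst2), 0.034 (Ifitm2), 0.044 (Xaf1), 0.11 (Ifi35), 0.34 (Parp14) and 0.085 (Il10rb). In thinned counts they were -0.15 (Oasl2), -0.074 (Bst2), 0.043 (Xaf1), 0.0094 (Parp14) and 0.00062 (Jak2). Without the filter they were -0.0095 (Oasl2) and -0.0033 (Bst2), with the replicate block -0.0030 (Bst2), and for Jak2 0.00068 with RLE size factors and 0.0027 by DESeq2. With 1 library left out they ran from -0.11 to 0.019 (Adar), -0.19 to 0.29 (Bst2), -0.17 to 0.0067 (Ddx58), -0.40 to 0.12 (Ifi35), -0.19 to 0.43 (Ifih1), -0.16 to 0.095 (Ifitm2), -0.12 to 0.058 (Il10rb), -0.075 to 0.15 (Irf2), -0.079 to 0.055 (Jak2), -0.072 to 0.12 (Oasl2), -0.23 to 0.26 (Parp14), -0.20 to 0.058 (Stat2), -0.12 to 0.0058 (Tyk2) and -0.40 to 0.11 (Xaf1). The cause was not tested.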

Other observations

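Rsad2 and Cmpk2, which encodes a mitochondrial nucleotide kinase of the interferon response, are neighbours on chromosome 12, 12.8 kb apart. Cmpk2 was looked up after the Rsad2 values were seen. It was at 8.79, 8.81 and 9.17 CPM in wt and at 8.50, 8.81 and 6.62 CPM in heterozygotes, with a log2 fold change of -0.16 (SE 0.137; edgeR, Benjamini-Hochberg adjusted p = 0.828). The genotypes overlapped in Cmpk2 and did not in Rsad2, and the difference between the 2 genes was not tested.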
